A study of Homo sapiens with 10 samples.

Results

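Expression of 10 genes used as markers of the epithelial and the mesenchymal state was examined in VCaP cells after knockdown of the chromatin remodelers *SMARCA4* or *SMARCA1*. The genes were *VIM*, *KRT8*, *KRT18*, *CDH1*, *CDH2*, *EPCAM*, *SNAI1*, *SNAI2*, *ZEB1* and *ZEB2*. They were taken by symbol from the 59386 genes listed in each count table, and all 10 were found. The set was selected on the low *VIM* counts of the *SMARCA1* knockdown, which were already known, so member values in that contrast are given as a description and without a p-value.

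VCaP is an established human prostate cancer cell line. Cells were transfected with siRNA A or siRNA B against *SMARCA4*, with siRNA A or siRNA C against *SMARCA1*, or served as control, for which the study lists a negative control siRNA, and RNA was taken 72 h later. The siRNA dose was 30 pmol for every knockdown library, and no dose was recorded for the controls. Each of the 5 groups had 2 libraries, 10 in all. Nothing says whether 2 libraries of a group came from separate cultures, so p-values measure the spread between libraries, which may be technical. Total counts per library lay between 23898545 and 34667965. A floor of 3 counts, which a count of 0 still allows, came to 0.0865 to 0.126 CPM (counts scaled to the library total) before any TMM correction. All other CPM were corrected by TMM factors. *SMARCA4* fell by 3.70 on the log2 scale in its knockdown (SE 0.13, adjusted p = 3.91e-07) and *SMARCA1* fell by 3.51 in its own (SE 0.18, adjusted p = 2.14e-06). *SMARCA1* was higher in the *SMARCA4* knockdown by 1.07 on the log2 scale (SE 0.18, adjusted p = 0.001). All 10 prostate luminal markers were detected in every group, at a summed level of 10382 to 10499 CPM in the controls.

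Epithelial cells hold together through E-cadherin (*CDH1*) and *EPCAM* at the cell surface and are stiffened inside by keratin filaments, of which keratin 8 (*KRT8*) and keratin 18 (*KRT18*) form an obligate pair in simple and luminal epithelium. Mesenchymal cells use vimentin (*VIM*) as their intermediate filament and N-cadherin (*CDH2*) as their adhesion molecule. In the epithelial-mesenchymal transition the repressors *SNAI1*, *SNAI2*, *ZEB1* and *ZEB2* bind E-box sequences, classically in the *CDH1* promoter, and turn epithelial genes down.

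*VIM* and *CDH2* are the members of the set with lower counts in both knockdowns, and their promoter windows are shown for that reason. Both come from RefSeq on GRCh38.p14, run 5′ to 3′ on the gene's own strand, and reach from 250 bases before to 50 after the start in that table. The *VIM* window is chr10:17227991-17228290 on the plus strand, and its start is also the first base of the gene in the deposited annotation. The *CDH2* window is chr18:28177081-28177380 on the minus strand, and its start lies inside the deposited gene span. Counts per gene do not tell which start was used.
VIM: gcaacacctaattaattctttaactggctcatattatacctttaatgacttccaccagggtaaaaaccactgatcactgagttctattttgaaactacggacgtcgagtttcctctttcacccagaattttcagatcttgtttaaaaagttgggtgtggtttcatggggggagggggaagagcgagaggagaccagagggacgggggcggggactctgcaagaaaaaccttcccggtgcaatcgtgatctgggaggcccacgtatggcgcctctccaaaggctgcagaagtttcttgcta
CDH2: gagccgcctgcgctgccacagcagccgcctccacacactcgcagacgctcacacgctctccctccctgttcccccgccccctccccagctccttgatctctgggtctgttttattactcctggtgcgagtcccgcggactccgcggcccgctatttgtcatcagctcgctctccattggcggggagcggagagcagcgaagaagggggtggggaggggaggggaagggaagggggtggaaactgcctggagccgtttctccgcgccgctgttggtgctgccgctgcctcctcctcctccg
The letters are all lower case because neither window held a motif that was searched. These were the E-box CACCTG bound by the repressors, the core of the interferon-stimulated response element and the TATA box TATAAA. The E-box and the interferon element were searched on both strands, and the last motif only as written. Among 35116 RefSeq promoters of the same 300.0 bases, 20.6% held CACCTG, 3.57% the interferon element and 7.33% TATAAA. The *VIM* window had 10 CG pairs and the *CDH2* window 23, beside a median of 14.0 over all promoters. Of the other members with an entry, the *ZEB1* window held the E-box once, as CAGGTG with its first base at -57 from the start, the *ZEB2* window held the interferon element at -85, and the *KRT8* window held none of the motifs. *CDH1*, *EPCAM*, *SNAI1*, *SNAI2* and *KRT18* had no entry. A match describes letters, not a bound site, and a missing match says nothing about the factor.

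*VIM* was nearly lost in the *SMARCA1* knockdown and reduced to different degrees with the *SMARCA4* siRNAs. The controls had 82 and 90 *VIM* counts. *SMARCA1* siRNA A left 1 and 0 counts, and *SMARCA1* siRNA C left 3 and 0. All 4 *SMARCA1* libraries were thus at or below the 3 counts that a count of 0 allows. *SMARCA4* siRNA A left 0 and 14 counts, while *SMARCA4* siRNA B left 56 and 52. Each of the 8 knockdown libraries was below both controls.

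**Figure D1:**
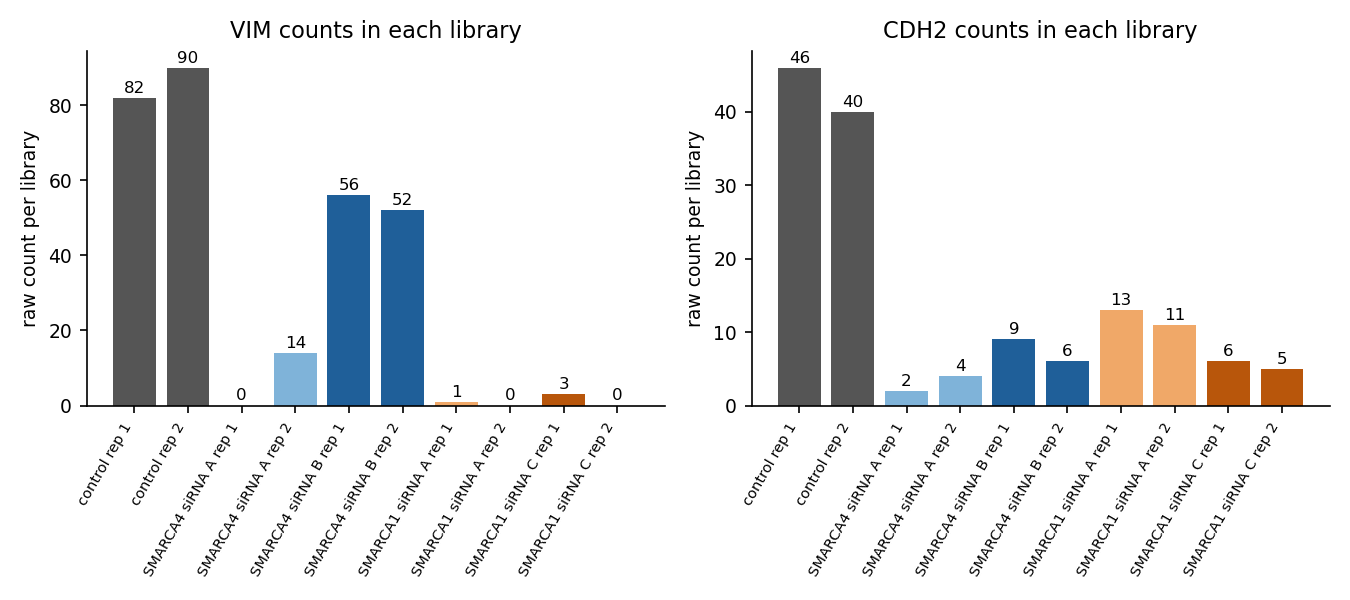
Raw counts of VIM (left) and CDH2 (right) in each of the 10 libraries; each bar is 1 library and its count is printed above it. The control libraries hold 82 and 90 VIM counts and 46 and 40 CDH2 counts, all above the highest knockdown library, which has 56 and 13.

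Pooled over libraries and scaled to total counts, *VIM* in the *SMARCA1* knockdown stood at 0.990% of control (4 counts against 172, exact 95% interval 0.267 to 2.58%). It was 0.570% with *SMARCA1* siRNA A (0.0144 to 3.22%) and 1.31% with *SMARCA1* siRNA C (0.268 to 3.90%), intervals that overlap. The *SMARCA4* siRNAs stood apart from each other, at 6.81% with siRNA A (14 counts, 3.65 to 11.7%) and 52.5% with siRNA B (108 counts, 40.9 to 67.2%). The interval of *SMARCA4* siRNA A overlapped that of *SMARCA1* siRNA C. These intervals cover counting error only.

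The log2 fold change fitted for *VIM* in the *SMARCA1* knockdown was -6.62 (SE 0.74), the 5th lowest of 16899 genes tested, and for a gene this near 0 it depends on small counts. In the *SMARCA4* knockdown *VIM* fell by 2.39 on the log2 scale (SE 0.50, edgeR adjusted p = 0.00322). That call rested on siRNA A: it was -3.86 with siRNA A alone (SE 0.68, adjusted p = 0.00231) and -0.93 with siRNA B alone (SE 0.52, adjusted p = 0.176), and DESeq2 gave an adjusted p of 0.172 for the pooled knockdown. Leaving out *SMARCA4* siRNA A replicate 1, which had 0 counts, gave -1.89, and leaving out replicate 2, which had 14, gave -5.23. *VIM* passed the filter on low counts through its level in the controls and in *SMARCA4* siRNA B.

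The 2 *SMARCA4* siRNAs differed in *VIM*. With siRNA B, *VIM* was 2.93 higher on the log2 scale than with siRNA A (SE 0.71, adjusted p = 0.0399), in a comparison where 6.20% of all genes tested were called. The call was lost with DESeq2 (adjusted p = 0.273), with only the 4 libraries compared in the fit (0.109), and without either control, either *SMARCA4* siRNA B library or either *SMARCA1* siRNA C library (0.0598 to 0.13). The difference was 2.002 without *SMARCA4* siRNA A replicate 1 and 8.69 without *SMARCA4* siRNA A replicate 2, which leaves siRNA A at 0 counts. The 2 siRNAs also differed in the target itself, since *SMARCA4* was 0.60 lower on the log2 scale with siRNA B (log2 fold change -0.60, SE 0.15, adjusted p = 0.0485), and whether that played a part in *VIM* was not tested. In these bulk libraries, fewer cells with *VIM* and less *VIM* RNA per cell cannot be told apart.

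*VIM* was a minor filament gene in these cells before any knockdown. Per length, the control libraries had 2.89 and 2.84 TPM of *VIM* (counts per exon length, scaled to the same sum in every library), a level that 27.7% of tested genes fell below. They had 344 and 344 TPM of *KRT8* and 611 and 629 TPM of *KRT18*. *VIM* was 0.291 to 0.302% of the summed *VIM*, *KRT8* and *KRT18* TPM in the controls, 0 to 0.0844% in the *SMARCA4* knockdown and 0 to 0.00290% in the *SMARCA1* knockdown.

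*VIM* lies on chromosome 10 (17228241 to 17237593, plus strand). *VIM-AS1*, an antisense gene that shares 641 exon bases with *VIM*, had 0 to 2 counts in every library. Of 10 neighbouring genes, 7 were tested, and the lowest log2 fold change among them was -1.13. *TRDMT1*, an RNA methyltransferase gene, had 19.1 and 15.3 CPM in the controls. *TRDMT1* fell by 0.88 on the log2 scale in the *SMARCA4* knockdown (SE 0.21, adjusted p = 0.00792) and by 1.13 in the *SMARCA1* knockdown (SE 0.22, adjusted p = 0.00208). The *TRDMT1* call in the *SMARCA4* knockdown was lost with siRNA A alone (-0.52, adjusted p = 0.142). *STAM*, an endosomal sorting gene, fell by 0.40 in the *SMARCA1* knockdown (SE 0.11, adjusted p = 0.0128), with 0.07 in the *SMARCA4* knockdown (SE 0.11, adjusted p = 0.66). *RSU1*, a Ras suppressor gene, rose in the *SMARCA4* knockdown by 0.31 (SE 0.11, adjusted p = 0.0381), a call lost with DESeq2 (adjusted p = 0.0583), without a filter on low counts (0.122), with upper quartile normalization (0.0841) and with siRNA A (0.0942) or siRNA B alone (0.0501). *HACD1* rose in the *SMARCA1* knockdown by 0.92 (SE 0.30, adjusted p = 0.0297), a call lost with *SMARCA1* siRNA C alone (0.73, adjusted p = 0.103). Its log2 fold change in the *SMARCA4* knockdown was 0.81 (SE 0.30, adjusted p = 0.0523), which passed with the replicate block (0.0489), among other settings. *ST8SIA6*, *ST8SIA6-AS1* and *PTER* passed the threshold in neither knockdown, with log2 fold changes between -0.36 and 0.51. These calls also depended on single libraries. Fewer of the 7 were called in the *SMARCA4* knockdown without control replicate 1. The same held for the *SMARCA1* knockdown without either control or *SMARCA1* siRNA C replicate 1. Such a fit leaves 1 library in a group for every gene. The *ST8SIA6-AS1* log2 fold change in the *SMARCA1* knockdown was -0.44 without *SMARCA1* siRNA A replicate 1.

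Across the 10 libraries, the genes whose log2 CPM was most correlated with that of *VIM*, of 13645 compared, were *CAT* (Pearson r 0.952), *FOLH1B* (0.949), *FOLH1* (0.946), *CLGN* (0.946) and *EEFSEC* (0.945). The points are libraries of 5 groups, not independent samples of 1 population. *CAT*, the catalase gene, had 26.5 and 27.4 CPM in the controls, 14.5 and 16.3 with *SMARCA4* siRNA A, 22.9 and 24.4 with *SMARCA4* siRNA B, and at most 12.4 in the *SMARCA1* knockdown. By group mean, as for *VIM*, the controls were highest, *SMARCA4* siRNA B next, then *SMARCA4* siRNA A, and both *SMARCA1* groups lowest, over a much narrower range. *FOLH1* encodes prostate-specific membrane antigen, and *FOLH1B* is a near-identical copy of it, so counts of that pair may be split by the read counting.

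*CDH2* was also low in every knockdown library. Counts were 46 and 40 in the controls, 2 and 4 with *SMARCA4* siRNA A, 9 and 6 with *SMARCA4* siRNA B, 13 and 11 with *SMARCA1* siRNA A and 6 and 5 with *SMARCA1* siRNA C. The groups of knockdown and control libraries did not overlap. In the *SMARCA4* knockdown *CDH2* fell by 3.41 on the log2 scale (SE 0.32, adjusted p = 3.48e-05), the 8th lowest of all genes tested, and it was past the threshold with siRNA A (-4.04, SE 0.43, adjusted p = 0.000156) and with siRNA B (-2.77, SE 0.37, adjusted p = 0.00026). Pooled counts stood at 10.2% of control (6.02 to 16.6%).

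In the *SMARCA1* knockdown the *CDH2* log2 fold change was -2.58 (SE 0.30), and the pooled counts stood at 17.3% of control (11.3 to 25.9%). The estimates put the knockdowns in the reverse order of that for *VIM*. Between the knockdowns, *CDH2* differed by -0.82 (*SMARCA4* minus *SMARCA1*, SE 0.36, 95% interval -1.63 to -0.02, adjusted p = 0.108), and between the *SMARCA4* siRNAs by 1.28 (B minus A, SE 0.55, adjusted p = 0.198), so neither difference passed. *CDH2* was at 0.979 and 0.761 TPM in the controls.

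The epithelial keratins rose. *KRT8* had 542 and 538 CPM in the controls, 1915 and 1393 with *SMARCA4* siRNA A, 2093 and 1426 with *SMARCA4* siRNA B, 2276 and 1457 with *SMARCA1* siRNA A, and 2442 and 2466 with *SMARCA1* siRNA C. *KRT18* had 429 and 439 CPM in the controls, 869 and 739 with *SMARCA4* siRNA A, 844 and 645 with *SMARCA4* siRNA B, 950 and 671 with *SMARCA1* siRNA A, and 875 and 855 with *SMARCA1* siRNA C. Every knockdown library was above both controls for each keratin. For *KRT8* the replicates of a knockdown lay far apart except with *SMARCA1* siRNA C.

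**Figure D2:**
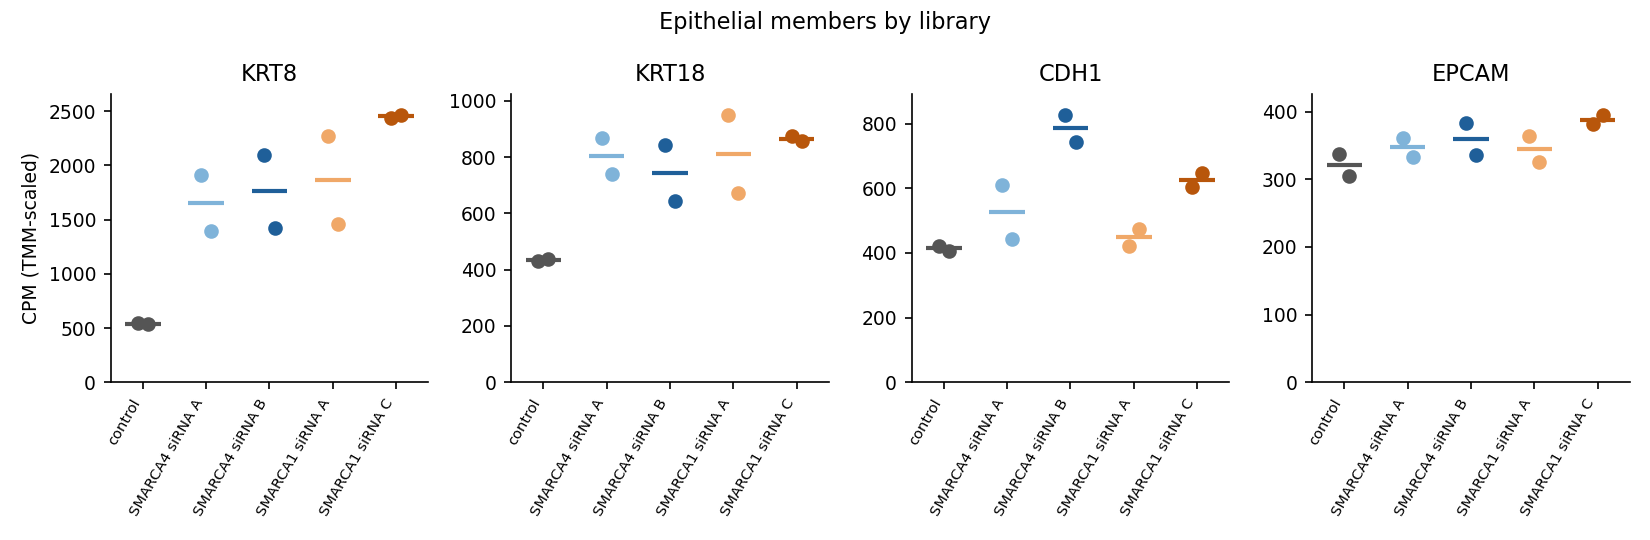
TMM-scaled CPM of KRT8, KRT18, CDH1 and EPCAM; each point is 1 library, each bar the mean of the 2 libraries of a group, and each axis starts at 0. KRT8 rises from 542 and 538 CPM in the controls to at least 1393 in every knockdown library, while EPCAM stays between 305 and 395 CPM.

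In the *SMARCA4* knockdown *KRT8* rose by 1.66 on the log2 scale (SE 0.22, adjusted p = 0.000249) and *KRT18* by 0.83 (SE 0.16, adjusted p = 0.00204). Both passed with *SMARCA4* siRNA A alone, where 33.2% of all genes were called, and with siRNA B alone (45.0%). In the *SMARCA1* knockdown the log2 fold changes were 1.99 for *KRT8* (SE 0.22) and 0.95 for *KRT18* (SE 0.16). Between the knockdowns *KRT8* differed by -0.33 (*SMARCA4* minus *SMARCA1*, SE 0.17, 95% interval -0.69 to 0.04, adjusted p = 0.149) and *KRT18* by -0.11 (SE 0.12, 95% interval -0.39 to 0.16, adjusted p = 0.503). Without *SMARCA1* siRNA A replicate 2, the *KRT8* difference was -0.46 and passed (adjusted p = 0.0205), as it did without a filter on low counts (-0.31, adjusted p = 0.00197).

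Although the pair assembles into one filament, its transcripts moved by unequal amounts. The *KRT8* to *KRT18* ratio in TPM was 0.547 to 0.563 in the controls, 0.840 to 1.11 in the *SMARCA4* knockdown and 0.968 to 1.29 in the *SMARCA1* knockdown. The *SMARCA4* and control libraries did not overlap, and an exact two-sided permutation test gave p = 0.133, the smallest that 4 libraries against 2 can give here. *KRT8* and *KRT18* lie next to each other on chromosome 12 on opposite strands and share 525 exon bases. The library kit keeps strand, but the counting setting is not given. Of 808 genes enclosed by opposite-strand exons, 26.6% reached 10 counts. The 51 annotated *KRT8* pseudogenes held 0.367 to 1.09% of the *KRT8* counts and the 67 *KRT18* pseudogenes 0.179 to 0.381% of the *KRT18* counts, so the exact split of reads with these copies is uncertain.

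*CDH1* rose in the *SMARCA4* knockdown, with more of the rise from siRNA B. Its level was 423 and 406 CPM in the controls, 610 and 443 with *SMARCA4* siRNA A, 827 and 745 with *SMARCA4* siRNA B, 423 and 474 with *SMARCA1* siRNA A, and 604 and 648 with *SMARCA1* siRNA C. The knockdown libraries lay above the controls in CPM, but the lowest *SMARCA1* library only just so. In TPM that library, *SMARCA1* siRNA A replicate 1, had 281 and lay below both controls (304 and 293). *CDH1* rose by 0.63 on the log2 scale in the *SMARCA4* knockdown (SE 0.13, adjusted p = 0.00342), with 0.92 for siRNA B (SE 0.15, adjusted p = 0.000849) and 0.34 for siRNA A (SE 0.15, adjusted p = 0.103). The difference between these siRNAs was 0.58 (SE 0.15, adjusted p = 0.0495), at the edge of the threshold. It was lost with only the compared libraries in the fit (adjusted p = 0.109) and without either control, either siRNA B library, *SMARCA4* siRNA A replicate 2 or either *SMARCA1* siRNA C library (0.0821 to 0.237). In the *SMARCA1* knockdown the *CDH1* log2 fold change was 0.36 (SE 0.13), with 0.12 for siRNA A (SE 0.15) and 0.60 for siRNA C (SE 0.15), of which siRNA C alone was past the threshold. *SMARCA4* minus *SMARCA1* came to 0.28 (SE 0.11, 95% interval 0.04 to 0.51, adjusted p = 0.0638). That difference passed with DESeq2 (adjusted p = 0.0422), without a filter on low counts (0.00782), without *SMARCA4* siRNA A replicate 2 (0.00831) and without *SMARCA1* siRNA A replicate 2 (0.0288).

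*EPCAM*, the other epithelial surface molecule, stayed near its control level. Its level was 338 and 305 CPM in the controls, 333 to 384 in the *SMARCA4* knockdown and 325 to 395 in the *SMARCA1* knockdown, so the groups overlapped in CPM. In TPM the *SMARCA4* libraries (617 to 683) lay above both controls (607 and 552), and the *SMARCA1* libraries (591 to 662) overlapped them. The log2 fold change was 0.14 in the *SMARCA4* knockdown (SE 0.10, 95% interval -0.09 to 0.36, adjusted p = 0.298) and 0.19 in the *SMARCA1* knockdown (SE 0.10, 95% interval -0.04 to 0.41). Per length, *EPCAM* was among the most abundant members in the controls (607 and 552 TPM), above *CDH1* (304 and 293 TPM).

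The repressors were barely detected in these cells. *ZEB1* had 0 to 3 counts and *ZEB2* 0 to 3 counts in every library, at or below the limit that a count of 0 allows, and neither entered the test. *SNAI1* had 7 and 21 counts in the controls, 10 to 21 in the *SMARCA4* knockdown and 13 to 23 in the *SMARCA1* knockdown. Its groups overlapped, and its log2 fold change in the *SMARCA4* knockdown was -0.22 (SE 0.42, 95% interval -1.16 to 0.71, adjusted p = 0.694), beside 0.18 in the *SMARCA1* knockdown (SE 0.41, 95% interval -0.73 to 1.09). No change in *ZEB1*, *ZEB2* or *SNAI1* was detectable at this depth.

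*SNAI2* was the repressor that set the knockdowns apart. Its counts were 3 and 13 in the controls, 11 and 12 with *SMARCA4* siRNA A, 10 and 10 with *SMARCA4* siRNA B, 24 and 25 with *SMARCA1* siRNA A, and 25 and 29 with *SMARCA1* siRNA C. All 4 *SMARCA1* libraries lay above all 4 *SMARCA4* libraries, a separation that 13.8% of genes tested showed in this direction. *SNAI2* was lower in the *SMARCA4* than in the *SMARCA1* knockdown by 1.31 on the log2 scale (log2 fold change -1.31, SE 0.32, adjusted p = 0.0103). Against control, it differed by 0.18 in the *SMARCA4* knockdown (SE 0.47, 95% interval -0.86 to 1.22, adjusted p = 0.781), and its log2 fold change in the *SMARCA1* knockdown was 1.49 (SE 0.43). The control libraries themselves lay far apart. Without control replicate 1 the *SMARCA1* value was 0.89, and without control replicate 2 it was 2.79.

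**Figure D3:**
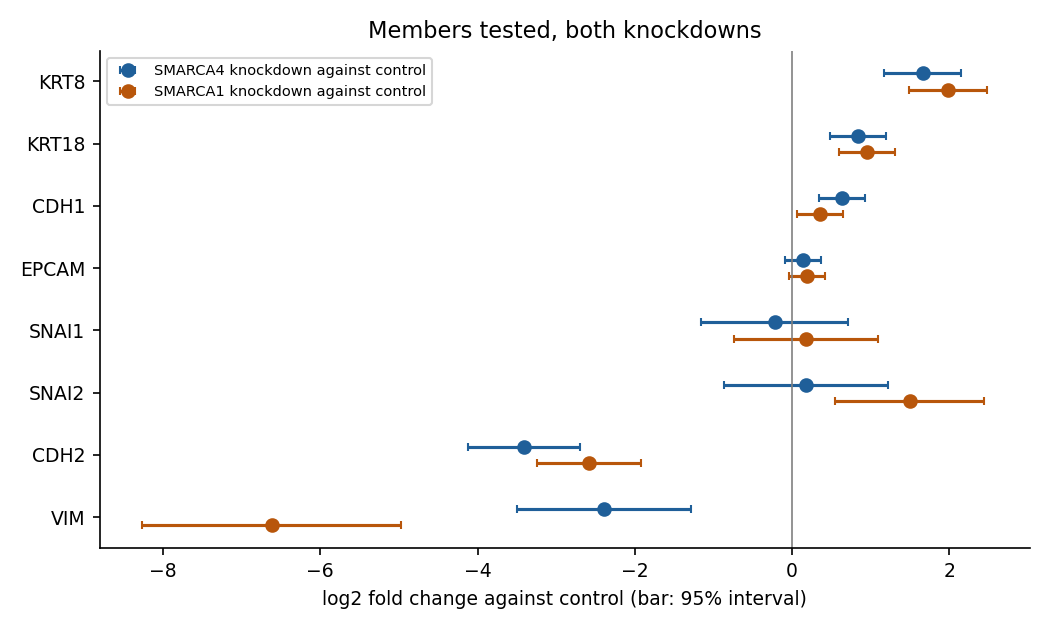
Fitted log2 fold change against control of the 8 members tested, for SMARCA4 knockdown (blue) and SMARCA1 knockdown (orange); points are estimates and bars 95% intervals. KRT8 lies at 1.66 and 1.99, CDH2 at -3.41 and -2.58, and VIM at -2.39 and -6.62; both contrasts share the 2 control libraries.

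In all, 8 of the 10 members were tested. In the *SMARCA4* knockdown 3 rose (*CDH1*, *KRT8*, *KRT18*) and 2 fell (*VIM*, *CDH2*), in a comparison where 45.1% of 16899 genes were called (22.8% higher and 22.3% lower). The libraries of these 5 genes did not overlap with the controls, as was so for 29.5% of all genes in the higher and 29.0% in the lower direction. In the *SMARCA1* knockdown, where the genes were chosen with the result known, 4 were past the threshold upward (*CDH1*, *SNAI2*, *KRT8*, *KRT18*) and 2 downward (*VIM*, *CDH2*), beside 46.8% of all genes (23.8% higher and 23.0% lower). Nothing is read from that count, since the contrast chose the set. The CPM of these members did not overlap with the controls, as was so for 29.1% of genes in each direction, although *CDH1* overlapped in TPM. Between the knockdowns, where 35.4% of genes were called, *SNAI2* passed, and *VIM* was higher in the *SMARCA4* knockdown by 4.22 (SE 0.91), a description since its *SMARCA1* level chose the set, and by 1.36 without *SMARCA4* siRNA A replicate 2. *VIM* was at or below the floor with both *SMARCA1* siRNAs, so no difference between them could be found in it. Of the 7 other members tested, none was called between the *SMARCA1* siRNAs by edgeR (0, with 2 at an unadjusted p under 0.05, *CDH1* and *CDH2*) or by DESeq2 (0), where 0.0118% of all genes were called. Without a filter on low counts, *CDH1* (0.45, adjusted p = 0.0166) and *KRT8* (0.37, adjusted p = 0.046) passed.

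Several other keratins rose, of which *KRT14*, *KRT15* and *KRT17* started from low control counts. The other intermediate filament genes numbered 18 tested, of which 7 rose and 4 fell in the *SMARCA4* knockdown and 9 rose and 3 fell in the *SMARCA1* knockdown. Their median log2 fold changes were 0.69 and 1.36, beside 0.00 and -0.00 over all genes tested. Of all genes, 22.8% were higher and 22.3% lower in the *SMARCA4* knockdown, and 23.8% and 23.0% in the *SMARCA1* knockdown. *KRT14* and *KRT15* encode keratins of basal epithelium, and *KRT19* a keratin of simple epithelium. *KRT5*, another basal keratin of the list, had 0 to 1 counts in every library. *KRT14* had 73 and 96 counts in the controls, 1175 to 3478 in the *SMARCA4* knockdown and 972 to 2730 in the *SMARCA1* knockdown. It rose by 4.40 (SE 0.24, adjusted p = 2.27e-06) and 4.23 (SE 0.23, adjusted p = 2.71e-06) on the log2 scale.

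*KRT15* had 5 and 3 counts in the controls, 43 to 217 in the *SMARCA4* knockdown and 100 to 447 in the *SMARCA1* knockdown. *KRT17*, a keratin of basal and activated epithelium, had 1 and 0 counts in the controls. It had 12 to 172 counts in the *SMARCA4* knockdown and 170 to 581 in the *SMARCA1* knockdown. *KRT15* and *KRT17* passed the filter on low counts only through the knockdown libraries, so their counts are given as a description. *KRT14* and *KRT17* are close paralogs, so reads could be split between them. *KRT19* had 1016 and 1233 counts in the controls, 3185 to 13546 in the *SMARCA4* knockdown and 6077 to 20187 in the *SMARCA1* knockdown. It rose by 2.41 (SE 0.42, adjusted p = 0.00116) and 3.39 (SE 0.44, adjusted p = 0.000276).

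**Figure D4:**
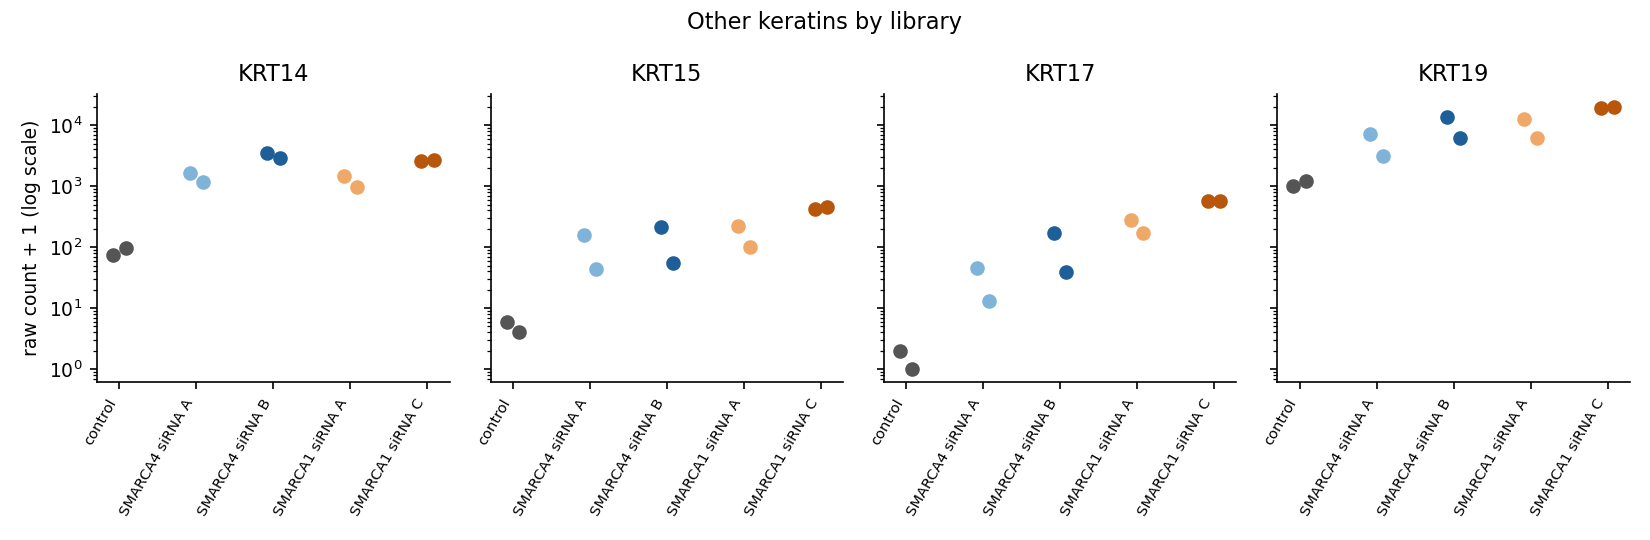
Raw counts plus 1, on a log axis, of KRT14, KRT15, KRT17 and KRT19; each point is 1 library. Every knockdown library lies above both controls for each gene, as for KRT14 with 73 and 96 control counts against at least 972.

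*PRPH*, the peripherin gene of peripheral neurons, also rose in the *SMARCA4* (2.81, SE 0.36, adjusted p = 0.000205) and the *SMARCA1* knockdown (3.06, SE 0.36, adjusted p = 0.000172). The neurofilament genes of the list did not all move with it. *NEFL* had 63.9 and 64.1 CPM in the controls and 16.6 to 45.5 in the knockdown libraries. *NEFM* had 7.49 and 6.02 CPM in the controls and 2.35 to 6.26 in the knockdown libraries, and *NEFH* 6.73 and 9.47 against 6.60 to 30.9. Genes of the nuclear lamina, which are filament genes outside the cytoplasm, moved in both directions. The lamins were singled out after their values were seen. *LMNB1* fell by 0.97 in the *SMARCA4* and by 0.92 in the *SMARCA1* knockdown (SE 0.09 for each). *LMNA* rose by 0.56 (SE 0.16, adjusted p = 0.0174) and 0.98 (SE 0.16, adjusted p = 0.00104), but *SMARCA4* siRNA A replicate 2 (60.9 CPM) lay between the controls (57.2 and 61.5 CPM). *LMNB2* fell by 0.65 in the *SMARCA4* knockdown (SE 0.09, adjusted p = 0.000301), with a log2 fold change of 0.08 in the *SMARCA1* knockdown (SE 0.09, adjusted p = 0.49).

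Junction and adhesion genes rose more often than they fell. Of 29 tested, 15 rose and 1 fell in the *SMARCA4* knockdown (median 0.49) and 15 rose and 5 fell in the *SMARCA1* knockdown (median 0.45). Over all genes tested, 22.8% were higher and 22.3% lower in the *SMARCA4* knockdown, and 23.8% and 23.0% in the *SMARCA1* knockdown. The desmosomal plakin gene *PPL* went from a mean of 10.4 CPM in the controls to 44.6 in the *SMARCA4* (adjusted p = 5.14e-05) and 46.1 in the *SMARCA1* knockdown (adjusted p = 7.7e-05). The tight junction genes *TJP3*, *CLDN4* and *CGN* rose as well, with *TJP3* at 1.96 (SE 0.20) in the *SMARCA4* and 1.73 (SE 0.20) in the *SMARCA1* knockdown and *CLDN4* at 1.35 (SE 0.27) in both. *CGN* rose by 1.51 (SE 0.11) in the *SMARCA4* and 1.06 (SE 0.10) in the *SMARCA1* knockdown, and the polarity gene *PARD3* by 1.28 (SE 0.16) and 1.33 (SE 0.16). The 1 gene that fell in the *SMARCA4* knockdown was *CDH3*, the P-cadherin gene (-0.75, SE 0.16, adjusted p = 0.00396).

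Of 19 epithelial identity factors tested, 11 rose and 1 fell in the *SMARCA4* knockdown (median 0.42) and 10 rose and 2 fell in the *SMARCA1* knockdown (median 0.60). The shares of all genes were 22.8% higher and 22.3% lower in the *SMARCA4* knockdown, and 23.8% and 23.0% in the *SMARCA1* knockdown. *KLF4*, a transcription factor of differentiating epithelium, went from a mean of 39.2 CPM in the controls to 208 in the *SMARCA4* and 206 in the *SMARCA1* knockdown. *OVOL1*, a repressor of mesenchymal genes, rose by 0.96 (SE 0.14) and 1.58 (SE 0.14). *ELF3* rose by 1.40 (SE 0.20) and 1.25 (SE 0.20), and *KLF5* by 0.79 (SE 0.15) and 1.35 (SE 0.16). *GRHL3* rose by 1.72 (SE 0.52) and 2.59 (SE 0.50) from 14 and 4 counts in the controls, and its *SMARCA1* value was 3.86 without control replicate 1 and 1.90 without control replicate 2. *MAL2*, which carries proteins to the apical membrane, fell by 0.93 (SE 0.11) in the *SMARCA4* and by 0.59 (SE 0.11) in the *SMARCA1* knockdown. Fewer of these factors were called in the *SMARCA4* knockdown without control replicate 2, a fit that leaves 1 control for every gene.

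**Figure D5:**
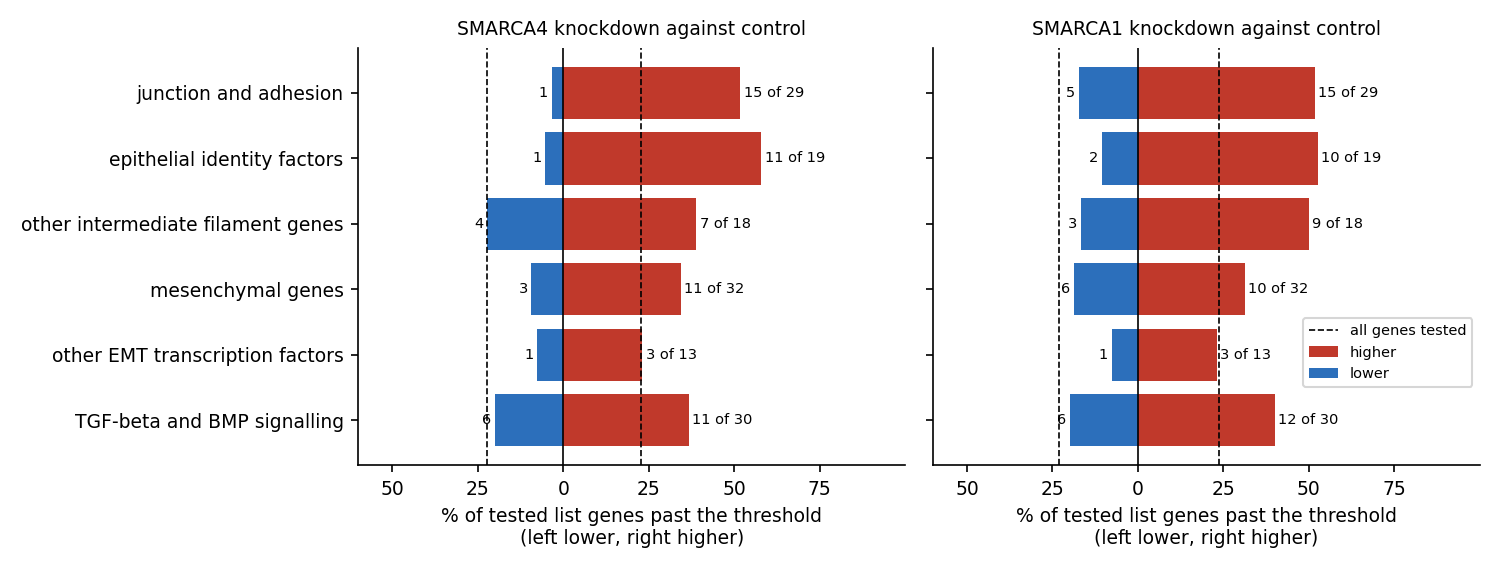
Share of the tested genes of each list that were higher (right, red) or lower (left, blue) at an adjusted p below 0.05, with the number of genes beside each bar; dashed lines mark the share over all 16899 genes. In the SMARCA4 knockdown 15 of 29 junction genes and 11 of 32 mesenchymal genes were higher, beside 22.8% of all genes.

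Other mesenchymal genes moved in both directions. Of 40 listed, 32 were tested, and 11 rose and 3 fell in the *SMARCA4* knockdown (median 0.09), where 22.8% of all genes were higher and 22.3% lower. In the *SMARCA1* knockdown 10 rose and 6 fell (median -0.01), beside 23.8% and 23.0% of all genes. *ITGA5*, the fibronectin receptor subunit, rose by 2.35 (SE 0.32, adjusted p = 0.000272) and 2.62 (SE 0.32, adjusted p = 0.000201). *CCN2*, a matricellular protein gene, rose by 2.30 (SE 0.28) and 2.24 (SE 0.28), and *FBN1*, which encodes fibrillin, by 1.55 (SE 0.26) and 2.17 (SE 0.27). *CCN1* rose by 1.47 (SE 0.12) and 1.18 (SE 0.12). Fewer of them were called in the *SMARCA4* knockdown without control replicate 1, a fit that leaves 1 control for every gene.

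The fibrillar collagen genes *COL1A2* and *COL3A1*, singled out after their values were seen, were past the threshold downward in the *SMARCA1* knockdown. The *COL1A2* counts were 15 and 92 in the controls, 0 and 23 with *SMARCA4* siRNA A, 12 and 72 with *SMARCA4* siRNA B, and 0, 0, 2 and 0 in the *SMARCA1* libraries. *COL3A1* had 7 and 18 counts in the controls, 4 to 24 in the *SMARCA4* knockdown and 3, 2, 0 and 0 in the *SMARCA1* libraries. The controls differed widely in these genes, which was not so for *VIM*.

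Of 13 other EMT transcription factors tested, 3 rose and 1 fell in each knockdown, where 22.8% (*SMARCA4*) and 23.8% (*SMARCA1*) of all genes were higher. *SOX9* rose by 0.92 (SE 0.14) and 0.77 (SE 0.14). *RUNX2* rose by 0.96 (SE 0.18) in the *SMARCA4* knockdown, beside 0.41 (SE 0.18, adjusted p = 0.0882) in the *SMARCA1* knockdown. *TCF3* fell by 0.70 (SE 0.09) in the *SMARCA4* knockdown, beside -0.04 (SE 0.09, adjusted p = 0.721). *WWTR1* rose by 0.81 (SE 0.16) in the *SMARCA1* knockdown, beside -0.27 (SE 0.16, adjusted p = 0.189) in the *SMARCA4* knockdown. TGF-beta and BMP signals are inducers of the transition. Of their 30 genes, 11 rose and 6 fell in the *SMARCA4* and 12 rose and 6 fell in the *SMARCA1* knockdown. Over all genes, 22.8% and 23.8% were higher and 22.3% and 23.0% lower. *ID1*, a BMP target, rose by 2.02 (SE 0.29, adjusted p = 0.000393) and 2.14 (SE 0.29, adjusted p = 0.000358). Among the receptors, *ACVR2B* fell by 1.58 (SE 0.25) and by 1.49 (SE 0.25), and *TGFBR1* fell by 0.71 (SE 0.20) and by 1.35 (SE 0.20). Of this list, 17 were called in the *SMARCA4* knockdown, and fewer without either control, which leaves 1 control for every gene.

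Markers of other cell types were low. The 10 fibroblast markers summed to 24.1 to 27.9 CPM in the controls, 18.7 to 35.5 in the *SMARCA4* knockdown and 37.6 to 55.4 in the *SMARCA1* knockdown. *LUM* made up most of that sum, with a mean of 16.9 CPM in the controls and 32.3 in the *SMARCA1* knockdown. Of the 6 fibroblast markers tested, 1 rose and 0 fell in the *SMARCA4* knockdown (median -0.17) by edgeR, and 2 rose and 2 fell in the *SMARCA1* knockdown (median -0.61). Their part in the *VIM* values was not tested. The 7 endothelial markers summed to at most 3.26 CPM and the 7 leukocyte markers to at most 2.45 CPM in any library. Of 10 prostate luminal markers, 3 rose and 2 fell in the *SMARCA4* knockdown and 0 rose and 7 fell in the *SMARCA1* knockdown by edgeR. All genes tested were higher in 22.8% and lower in 22.3% of cases in the *SMARCA4* knockdown, and in 23.8% and 23.0% in the *SMARCA1* knockdown. *FOLH1* fell by 0.86 (SE 0.13) and by 1.78 (SE 0.13). Fewer of the luminal markers were called in the *SMARCA1* knockdown when either control was left out, which leaves 1 control for every gene.

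An interferon response accompanied both knockdowns. All 24 interferon response genes rose in each, and their summed level went from 305 to 309 CPM in the controls to 15833 to 43799 in the *SMARCA4* and 23370 to 45794 in the *SMARCA1* knockdown. *IFIT1*, which binds foreign RNA, rose by 9.16 on the log2 scale in the *SMARCA4* knockdown (SE 0.41, adjusted p = 6.27e-07). Its part in the values of *VIM*, *CDH2* and the keratins was not tested.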

How the data were processed

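RNA-seq of 10 VCaP libraries was analysed from the raw counts deposited by the authors, whole numbers per gene without normalization. The authors aligned reads from polyadenylated, strand-specific libraries to hg38 with HISAT2 2.1.0 and counted them with featureCounts 1.5.2, versions as in the submitters' processing notes. The knockdown, siRNA and replicate were taken from the sample labels.

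In R 4.3.3, edgeR 4.0.16 kept 16899 genes after filterByExpr (minimum count 10, minimum total 15). After TMM normalization, all 10 libraries entered a single quasi-likelihood fit as 5 groups, with the siRNA groups of a target averaged for its knockdown. P-values were adjusted by Benjamini-Hochberg over all genes tested, with calls at an adjusted p below 0.05. The fit was also run on simulated data, where far fewer genes changed than were called here, and nothing is read from that run. TPM were computed from counts and the deposited gene lengths, and ratio intervals are exact conditional binomial ones. Total counts of 23898545 to 34667965 limit precision for genes with few counts.

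The members and the gene lists were chosen with earlier results of these data known. Of 30 junction genes, 29 were matched by symbol. Besides the members, tested *VIM* neighbours and the 5 genes most correlated with *VIM*, up to 4 genes per list and knockdown were eligible to be named, of which some are not reported here. These had the largest changes among genes that were called with both siRNAs in 1 direction and averaged 1 CPM or more. *CDH3*, *KRT5*, *NEFL*, *NEFM*, *NEFH*, the lamin genes, *COL1A2* and *COL3A1* were singled out after their values were seen. Alternatives were DESeq2 1.42.0, other filters and normalizations, a block for the replicate number, fits of only the libraries compared, single siRNAs and leaving out each library.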

Additional observations from a re-analysis of the deposited data

Results flagged for a closer look

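The knockdowns differed in *SNAI2*, which was lower with the *SMARCA4* siRNAs by 1.31 on the log2 scale (log2 fold change -1.31, SE 0.32, edgeR adjusted p = 0.0103), in a test of the difference itself. It had 10 to 12 counts in the *SMARCA4* and 24 to 29 counts in the *SMARCA1* libraries.

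The *SMARCA4* siRNAs differed in *VIM* by 2.93 (siRNA B minus siRNA A, SE 0.71, adjusted p = 0.0399) and in *CDH1* by 0.58 (SE 0.15, adjusted p = 0.0495), both in tests of the difference itself. The *VIM* call was lost with DESeq2 (adjusted p = 0.273), both calls with only the libraries compared (0.109 for each), and each without either control, among other libraries (0.0833 to 0.0856). *VIM* had 0 and 14 counts with siRNA A and 56 and 52 with siRNA B.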

How the results depend on the processing

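The 5 member calls of the *SMARCA4* knockdown kept their number when any 1 library was left out (5 to 5). With DESeq2, *VIM* was not called and the number was 4. In the *SMARCA1* knockdown 6 members were past the threshold, and 4 to 7 with a library left out. The *VIM* log2 fold change there ranged from -8.37 to -6.13 with a library left out. Between the knockdowns the number of members called went from 2 to 4 without a filter on low counts and to 1 with a filter of 1 CPM in 2 libraries, which removes *SNAI2*, and lay between 2 and 4 with a library left out, 4 being without *SMARCA1* siRNA A replicate 2. Between the *SMARCA4* siRNAs it went from 2 to 1 with DESeq2 and to 0 with only the libraries compared, and lay between 0 and 2 with a library left out. Between the *SMARCA1* siRNAs it went from 0 to 2 without a filter, and lay between 0 and 0 with a library left out. Genes called over all lists numbered 107 in the *SMARCA4* and 118 in the *SMARCA1* knockdown, and 78 to 126 and 95 to 130 with a library left out. Leaving out a library leaves 1 in its group for all genes, and the share of all genes called in those fits is not given. The cause of these shifts was not tested.

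Values that changed sign were not called in any of these fits. With a library left out, *VIM* between the *SMARCA1* siRNAs ranged from -2.44 to 3.55, *EPCAM* between the knockdowns from -0.0804 to 0.00308 and between the *SMARCA4* siRNAs from -0.0324 to 0.14, *SNAI1* in the *SMARCA4* knockdown from -0.70 to 0.69 (0.19 with siRNA B alone) and between the *SMARCA1* siRNAs from -0.61 to 0.0562, *SNAI2* in the *SMARCA4* knockdown from -0.41 to 1.49, and *KRT8* between the *SMARCA4* siRNAs from -0.194 to 0.33. *KRT18* ranged from -0.22 to 0.0318 between the knockdowns, from -0.30 to 0.0612 between the *SMARCA4* siRNAs and from -0.163 to 0.35 between the *SMARCA1* siRNAs. *ST8SIA6-AS1* in the *SMARCA4* knockdown ranged from -0.0825 to 0.0638, and *PTER* in the *SMARCA1* knockdown from -0.0589 to 0.104, with 0.000644 without a filter and 0.208 with siRNA C alone. *SNAI1* in the *SMARCA1* knockdown, given as a description, ranged from -0.31 to 1.081.

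The labels do not say what a replicate number marks. Deviations of same-numbered libraries from the group means correlated between -0.10 and 0.36 over 10 pairs of groups, and above 0.1 in the 3 pairs among *SMARCA4* siRNA A, *SMARCA4* siRNA B and *SMARCA1* siRNA A, so the numbers were not treated as pairing all groups. With the replicate block, 5 members were called in the *SMARCA4* knockdown, 6 were past the threshold in the *SMARCA1* knockdown, 2 were called between the knockdowns, 2 between the *SMARCA4* siRNAs and 0 between the *SMARCA1* siRNAs, and 114 and 118 list genes in the *SMARCA4* and *SMARCA1* knockdown. Depth limits *VIM* in the *SMARCA1* knockdown to an upper bound, and *SNAI1*, *ZEB1* and *ZEB2* to counts near the floor.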
